A study of Mus musculus with 6 samples.

Results

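The genes described here are brachyury, written T in mouse nomenclature, and 9 further T-box transcription factors, Tbx1, Tbx2, Tbx3, Tbx4, Tbx5, Tbx6, Tbx15, Tbx18 and Tbx20. They were found by gene symbol and make up 10 of the 33573 genes in the deposited table. Of these, 6 had enough reads to enter the comparison of all genes, and the other 4 are described by their read counts. The genes were chosen from the tumor and colon values of these same libraries, so their own differences between the tissues are given as a description without a test. RNA-seq was performed on bulk frozen tissue of C57BL/6 mice bearing colorectal cancer induced with AOM/DSS, that is, the carcinogen azoxymethane followed by the colitis-inducing agent dextran sodium sulfate. The tumor group held 3 colon tumors (CAC-T) and the colon group held 3 colon tissues (CAC-C), both numbered 2, 4 and 20, and both taken from tumor-bearing mice. The colon group had therefore also been exposed to carcinogen and colitis and is not tissue of untreated mice. The label calls its cells normal colon cells, but what was sequenced was a piece of tissue.

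T-box factors bind DNA through a shared domain, the T-box, and switch cell fate genes on or off while organs form. Brachyury, the founding member, is made in the primitive streak, the tailbud and the notochord of the embryo, where Wnt signaling acts on it through TCF/LEF factors. It has been described in several human carcinomas and is a marker of chordoma. Tbx2 and Tbx3 act mainly as repressors and are known for blocking senescence, and Tbx3 has been described as a target of β-catenin in liver tumors.

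The promoter of T is shown first because T had the largest contrast between the tissues. Promoter sequences were taken from RefSeq (GRCm38.p6) and covered 250 bases before to 50 bases after the start of a gene. They were at hand for 6 of the 10 genes, with 7 promoters because Tbx1 had a pair. The promoters of Tbx2, Tbx3, Tbx5 and Tbx15 were not analysed here. Below are the 250 bases before the start of T (chr17:8434173-8434422, plus strand) and, as a gene that was also higher in tumor, those of Tbx4 (chr11:85896515-85896764, plus strand). Capitals mark a match to the TCF/LEF core letters CTTTGA, here read on the opposite strand.
T: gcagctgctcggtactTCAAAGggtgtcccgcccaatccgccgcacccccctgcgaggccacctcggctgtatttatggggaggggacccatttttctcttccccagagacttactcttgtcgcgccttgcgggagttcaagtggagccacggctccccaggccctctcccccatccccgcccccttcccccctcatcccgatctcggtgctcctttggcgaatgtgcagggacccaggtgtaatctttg
Tbx4: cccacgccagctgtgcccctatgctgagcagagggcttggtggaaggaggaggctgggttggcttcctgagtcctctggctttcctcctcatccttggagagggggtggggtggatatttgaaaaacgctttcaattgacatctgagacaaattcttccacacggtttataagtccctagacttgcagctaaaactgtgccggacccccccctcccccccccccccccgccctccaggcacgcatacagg
The capitals in T lay 234 to 229 bases before its start. The longer TCF/LEF letters CTTTGAT, searched on both strands, matched in 0 of the 7 promoters and in 3.73% of all 32851 promoters of the same length. The T-box letters CACACCT also matched in 0 of 7, against 5.84% of all. The 6-letter core, which is part of the longer motif and was added after the first search, matched in 1 of 7 against 16% of all. In a shorter window from 150 bases before the start it matched in 0 of 7, against 10.3% of all. The promoter of T was 61.7% G and C and that of Tbx4 was 59%, with a median of 52.7% over all promoters. A match is a description of letters and not of a bound site.

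T had reads in every tumor and in no colon library. It is a protein-coding gene on the plus strand of chromosome 17, from 8653255 to 8661328 (ENSMUSG00000062327; gene coordinates are of the GRCm39 build). Its read counts were 852, 542 and 659 in tumors 2, 4 and 20 and 0, 0 and 0 in colon tissues 2, 4 and 20. In CPM, the read count relative to the scaled total of its library (per megaread), the tumors had 41.6, 24.9 and 36.5, a mean of 34.3 ± 8.60 (SD, n = 3). The groups did not overlap. A count of 0 in the 3 colon libraries allows up to 3 reads, or 0.0568 CPM over the group, so T was at least 604.6-fold higher in tumor. Of the 33573 genes 6098 had no read in any colon library, and 365 of these had reads in every tumor. Of the 6098 genes, 9 reached a mean of 10 CPM in tumor. T ranked 2 among the 6098 by mean tumor CPM. In bulk tissue, fewer cells of a type and less RNA per cell cannot be told apart, here or for any gene below.

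Tbx3 was the most abundant of the 10 genes in tumor. Its read counts were 4302, 3895 and 2862 in tumors 2, 4 and 20 and 179, 229 and 210 in the colon tissues of the same numbers. The groups were far apart, with the lowest tumor at 158.5 CPM and the highest colon tissue at 14.1 CPM. The means were 182 ± 26.1 CPM in tumor and 11.8 ± 2.16 CPM in colon (SD, n = 3), a log2 difference of 3.95 ± 0.18 (SE). Within the numbers 2, 4 and 20 the tumor was 21.5, 12.7 and 13.7 times its colon tissue. Tbx3 lies on the plus strand of chromosome 5, from 119808734 to 119822789 (ENSMUSG00000018604). A long noncoding gene, Tbx3os1, overlaps its first 697 bases on the opposite strand. The kit marked strand, but the use of strand in counting was not given, so reads of this stretch may belong to either gene.

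Tbx4, a factor of hindlimb and lung mesenchyme, was lower in level than T and Tbx3 but had a similarly clear gap. It had 108, 90 and 64 reads in tumors 2, 4 and 20 and 14, 6 and 1 in the colon tissues. Every tumor, at 3.54 to 5.28 CPM, lay above every colon tissue, at 0.0549 to 0.763 CPM. The means were 4.32 ± 0.881 and 0.396 ± 0.355 CPM (SD, n = 3), a log2 difference of 3.42 ± 0.66 (SE). Summed reads gave a ratio of 10.9 (95% counting interval, 7.0 to 17.9). Relative to its mean, Tbx4 varied more in colon (coefficient of variation 89.7%) than in tumor (20.4%). The log2 difference was 4.35 without colon replicate 2, which held most of the colon reads, and 2.91 without colon replicate 20, which held 1. Tbx4 lies on chromosome 11, 85777248 to 85806923, plus strand (ENSMUSG00000000094).

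Tbx1, which patterns the pharyngeal arches and the outflow tract of the heart, had 208, 117 and 141 reads in tumors 2, 4 and 20 and 28, 60 and 35 in colon tissues. The groups did not overlap, but tumor 4, at 5.36 CPM, was close to colon tissue 4, at 3.68 CPM. The means were 7.78 ± 2.40 and 2.38 ± 1.15 CPM (SD, n = 3), a log2 difference of 1.71 ± 0.41 (SE). Within the numbers 2, 4 and 20 the tumor was 6.66, 1.46 and 4.06 times its colon tissue. Tbx1 lies on chromosome 16, 18399729 to 18409421, minus strand (ENSMUSG00000009097).

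**Figure D1:**
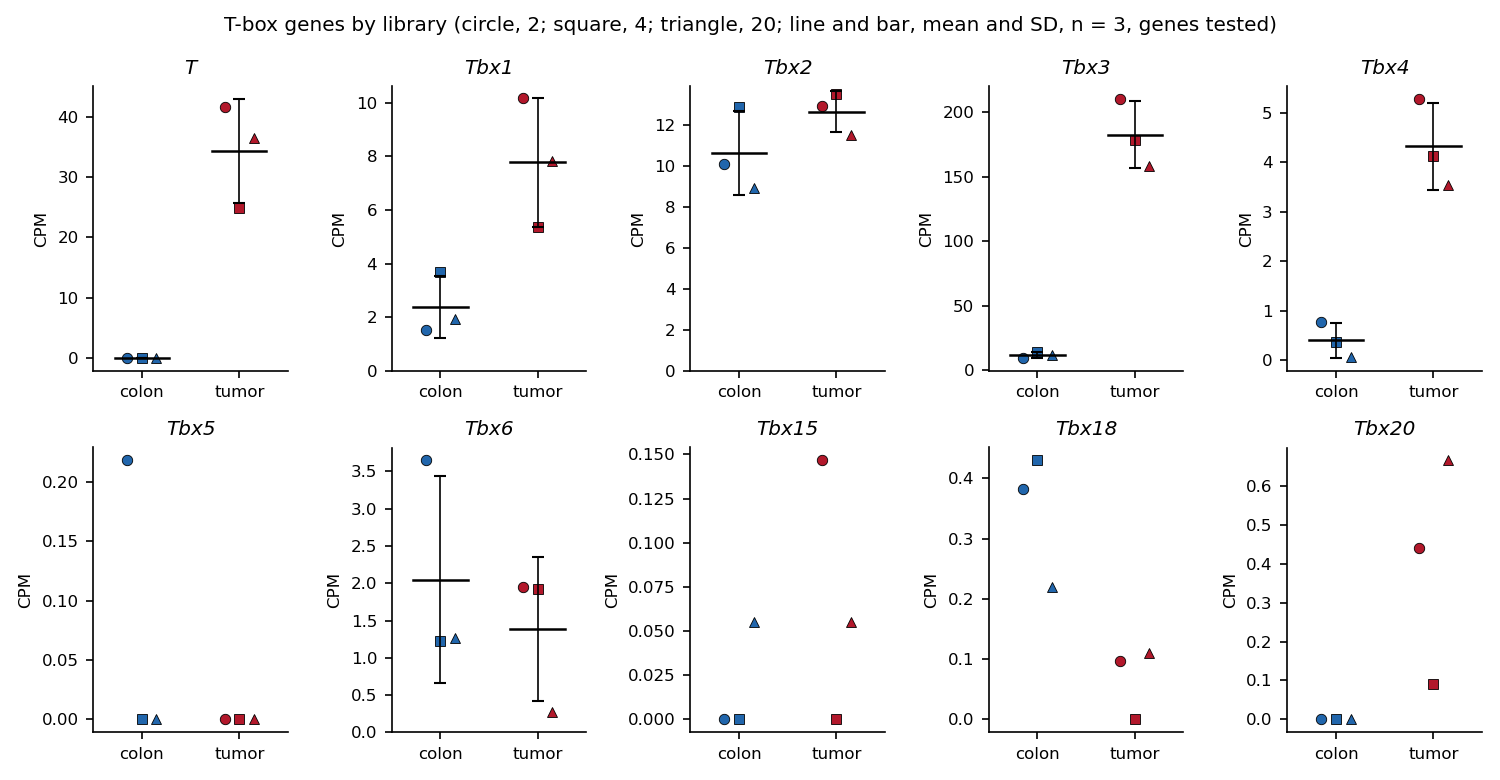
Level, in CPM (reads per megaread), of each of the 10 T-box genes in the 3 colon libraries (blue) and the 3 tumor libraries (red), with a scale of its own for each gene. Circles, squares and triangles stand for numbers 2, 4 and 20, and the line and bar for mean and SD in the 6 genes with enough reads. T, Tbx1, Tbx3, Tbx4 and Tbx20 lie higher in every tumor than in every colon tissue, Tbx18 lies lower, and the groups overlap in Tbx2, Tbx5, Tbx6 and Tbx15.

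Tbx2 and Tbx6 did not separate the tissues. Tbx2, the closest relative of Tbx3 and like it a repressor, had 264, 294 and 208 reads in tumors 2, 4 and 20 and 185, 210 and 162 in colon tissues. Colon tissue 4, at 12.9 CPM, lay above tumor 20, at 11.5 CPM. The means of Tbx2 were 12.6 ± 1.01 and 10.6 ± 2.05 CPM (SD, n = 3), a log2 difference of 0.25 ± 0.20 (SE). Tbx6, which specifies paraxial mesoderm, had 40, 42 and 5 reads in the tumors and 67, 20 and 23 in the colon tissues. Colon tissue 2 was highest, at 3.65 CPM, and tumor 20 lowest, at 0.277 CPM, with the other libraries of both groups between them. The log2 difference of Tbx6 was -0.55 ± 0.74 (SE), and it was 0.16 without colon replicate 2.

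The remaining genes were at a few reads per library. Tbx20, a factor of the developing heart, had 9, 2 and 12 reads in tumors 2, 4 and 20 and none in colon. Against 3 reads over the colon group, its mean level was at least 7.02-fold higher, and the lower 95% counting limit, which also takes in the error of the 23 tumor reads, was 5.035. By mean tumor CPM it ranked 170 among the 6098 genes with no read in any colon library. Tbx18, a factor of the epicardium and of ureter mesenchyme, had 2, 0 and 2 reads in the tumors and 7, 7 and 4 in the colon tissues. All 3 colon tissues were above all 3 tumors, and the ratio of colon to tumor was 5.14, with a 95% counting interval of 1.69 to 20.9. Tbx15, known for skeletal and skin development, had 3, 0 and 1 reads in the tumors and 0, 0 and 1 in the colon tissues. Its interval, 0.347 to 172.5 for tumor over colon, allows a difference in either direction. Tbx5, which acts in forelimb and heart, had 4 reads, all in colon tissue 2. No difference was detectable for Tbx5 and Tbx15 at this depth.

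In the comparison of all genes, 4 of the 6 genes with enough reads (T, Tbx1, Tbx3 and Tbx4) were called higher in tumor and 0 were called lower. In the same comparison 16.1% of the 18520 genes tested were called higher and 16.1% were called lower. Since the 10 genes were chosen from this contrast, nothing is read from their count. The calls of these genes in other settings describe only how the values depend on the processing and are no test. T, Tbx3 and Tbx4 were called in 16 of 16 other settings of the analysis. Tbx1 was called in 12 of 16 and was not called when the sample number was added as a block or when tumor replicate 2, tumor replicate 20 or colon replicate 20 was left out. With the block 3 of the 10 genes were called higher, and without the filter on low counts 5 were, with Tbx20 added. Total read counts lay between 16995481 and 20789620 per library.

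Levels were compared between genes per length of transcript, as FPKM, in which reads are divided by the exon length of the gene and the depth of the library. In tumor the order of mean FPKM was Tbx3, T, Tbx2, Tbx1, Tbx4 and Tbx6, and then the 4 genes with few reads. Tbx3 had 33.4, 28.3 and 24.4 FPKM in tumors 2, 4 and 20, above the 18.95, 11.3 and 16.1 FPKM of T in the same libraries, and the ranges did not overlap. The next in order, Tbx2, had 3.75, 3.90 and 3.25 FPKM, all below T and all above the 1.6 to 3.04 FPKM of Tbx1. Tbx4, at 1.06 to 1.64 FPKM, overlapped both Tbx1 and Tbx6, which had 0.157 to 1.14 FPKM. Tbx20, the next in order, lay below Tbx6 in every tumor. In colon the order was Tbx2, Tbx3, Tbx6, Tbx1 and Tbx4, and the ranges of Tbx3 (1.44 to 2.03 FPKM), Tbx6 (0.652 to 1.98 FPKM) and Tbx1 (0.424 to 1.0 FPKM) overlapped from one to the next. Of the genes tested, 77.7% had a lower mean FPKM in tumor than T and 88.9% had a lower one than Tbx3, while 28.4% had a lower one than Tbx3 in colon.

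Adding the T-box genes outside the 10 shows how the family's RNA was made up. Tbx3 and T together gave most of it in tumor and Mga and Tbx2 gave most of it in colon. The FPKM of 16 T-box genes summed to 69.0, 54.0 and 53.1 in tumors 2, 4 and 20 and to 11.97, 12.04 and 10.3 in the colon tissues, means of 58.7 ± 8.91 and 11.4 ± 1.0 (SD, n = 3). T and Tbx3 held 76%, 73.2% and 76.4% of the sum in the tumors. In colon Tbx3 alone held 12%, 16.9% and 15.9%, since T was at 0. Mga, a large protein that carries a T-box and also dimerizes with MAX, held 41.2%, 36.5% and 46.2% in colon.

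**Figure D2:**
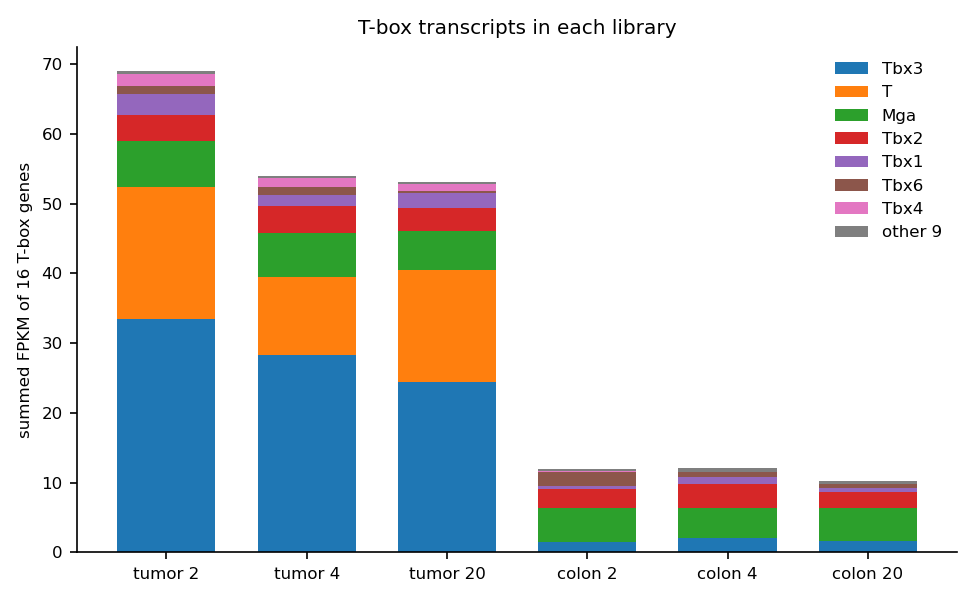
Summed FPKM of 16 T-box genes in each of the 6 libraries, stacked by gene. The tumor bars reach 69.0, 54.0 and 53.1 and are mostly Tbx3 (blue) and T (orange), and the colon bars reach 11.97, 12.04 and 10.3 with no T and with Mga (green) as the largest part.

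The T-box genes outside the 10 are those that the choice by tumor and colon values left out, so their calls depend in part on that choice. Of 6 measured, Eomes and Mga had enough reads, and 0 were called in either direction by edgeR's quasi-likelihood test. Mga had an unadjusted p below 0.05, which makes 1, and 0 were called in any other setting in which they were tested, DESeq2 and limma among them. Mga had 1948, 1991 and 1515 reads in tumors 2, 4 and 20 and 1421, 1146 and 1409 in colon tissues, or 90.1 ± 5.72 and 75.1 ± 4.08 CPM (SD, n = 3; log2 difference 0.26 ± 0.10 SE, edgeR adjusted p = 0.0801). Its groups did not overlap in CPM. Eomes, which acts beside brachyury in the primitive streak, had 19, 22 and 10 reads in the tumors and 10, 10 and 4 in the colon tissues (log2 difference 0.86 ± 0.52 SE, edgeR adjusted p = 0.248). Tbx21, the factor of type 1 helper T cells, had 1, 3 and 0 reads in the tumors and 1, 8 and 14 in the colon tissues, and the groups overlapped. Tbx10 had 4, 1 and 0 reads in the tumors and none in colon, Tbr1 had 1 read in tumor and 2 in colon, and Tbx22 had none in any library.

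The T-box genes lie in part side by side, and the genes around them were compared next. Tbx2 and Tbx4 are 44.5 kb apart on chromosome 11 and Tbx3 and Tbx5 are 148 kb apart on chromosome 5, and in both pairs the values of the neighbors differed. Tbx4 was 10.9 times higher in tumor beside a Tbx2 that was 1.19 times higher, and Tbx3 was 15.5 times higher beside a Tbx5 with 0 tumor reads. The 3 nearest other genes on each side of every T-box gene came to 50, of which 27 had enough reads. By edgeR 3 of them rose and 4 fell, or 11.1% and 14.8% against 16.1% and 16.1% of all genes. Of those that rose, Prr18 and Tbx3os2 had enough reads in every tumor but not in every colon tissue. The shares are therefore a description and not a test of the neighbors. The median log2 difference of the tested neighbors was 0.17, and that of all genes tested was 0.01.

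The 3 neighbors that rose lay at T and at Tbx3. Prr18, a proline-rich protein gene 90.3 kb from T, had 912, 794 and 760 reads in tumors 2, 4 and 20 and 28, 5 and 18 in colon tissues. All tumors of Prr18 lay far above all colon tissues, with means of 41.0 ± 4.18 and 0.941 ± 0.611 CPM (SD, n = 3; log2 difference 5.42 ± 0.44 SE, edgeR adjusted p = 0.000383). Pde10a, on the other side of T, did not pass (log2 difference 0.42 ± 0.44 SE, edgeR adjusted p = 0.493), and T2, the nearest gene to T, had 13, 2 and 4 reads in the tumors and none in colon. Pde10a and T2 were named after their values were seen.

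Both long noncoding genes beside Tbx3 rose. Tbx3os1, the gene that overlaps Tbx3 head to head, had 232, 309 and 198 reads in tumors 2, 4 and 20 and 27, 42 and 47 in colon tissues (log2 difference 2.46 ± 0.29 SE, edgeR adjusted p = 0.00134). Tbx3os2, which ends 371 bases from the end of Tbx3 on the opposite strand, had 135, 204 and 97 reads in the tumors and 0, 0 and 4 in the colon tissues (edgeR adjusted p = 0.00183). Its ratio of summed reads was 95.5, with a 95% counting interval of 37.0 to 352, and all colon reads were in colon tissue 20. The tumor with the most Tbx3 reads, tumor 2, was not the tumor with the most reads of either noncoding gene, which was tumor 4.

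The 4 neighbors that fell lay at Tbx6 and Tbx15 and moved little. Near Tbx6 these were Tlcd3b (log2 difference -0.42 ± 0.10 SE, edgeR adjusted p = 0.0167), Ypel3, and Aldoa, an enzyme of glycolysis and the neighbor with the highest level (748 ± 6.11 against 931 ± 42.8 CPM, edgeR adjusted p = 0.0371). Near Tbx15 it was Wars2, a mitochondrial tRNA synthetase. None of the 4 calls held in every leave-one-out fit, which gave 0 to 3 neighbors lower, with 0 without tumor replicate 20 or colon replicate 4.

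**Figure D3:**
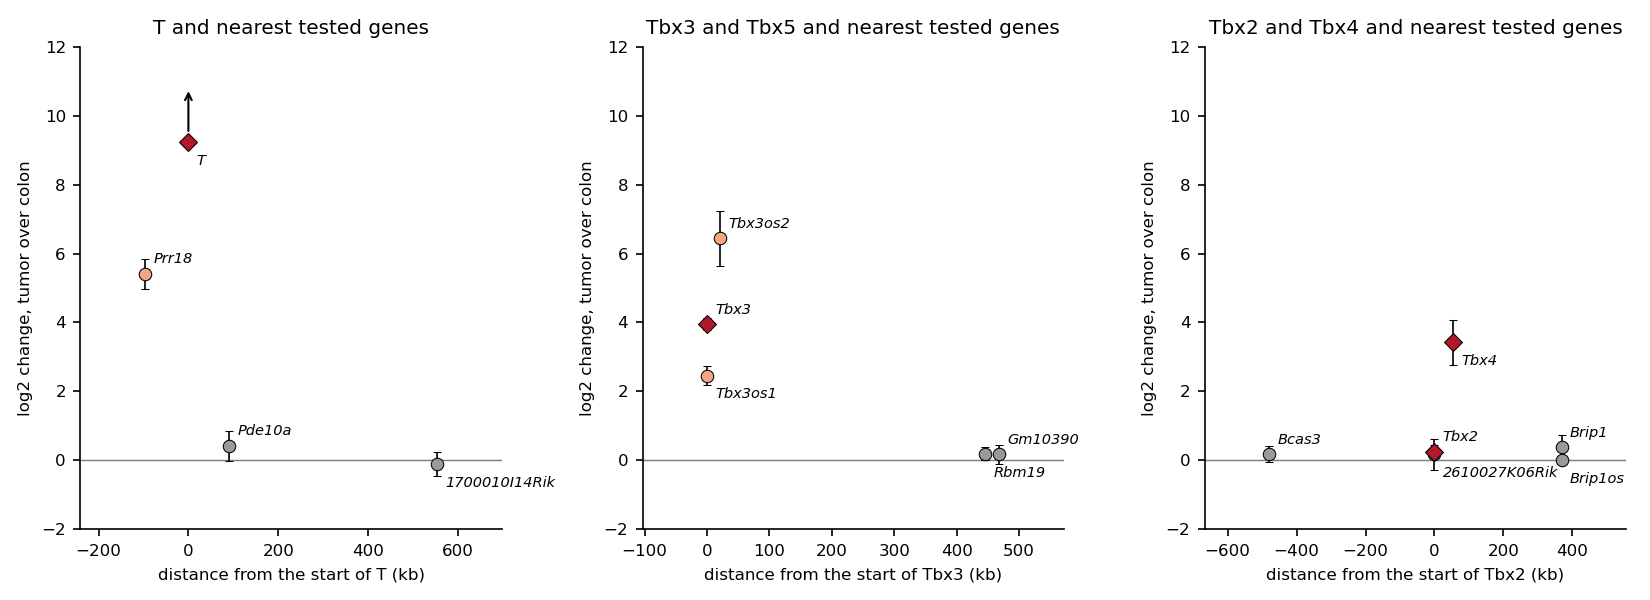
The log2 difference (tumor over colon, bar SE) of T-box genes (red diamonds) and of the nearest genes with enough reads, against the distance in kb from the start of T, Tbx3 and Tbx2. Orange circles passed edgeR's test as higher, gray circles did not pass, and the arrow marks that T stands at its lower bound of 604.6-fold. Prr18 near T and Tbx3os1 and Tbx3os2 at Tbx3 stand above 0, and the other neighbors shown stand near it, among them Pde10a, which is closer to T than Prr18 is.

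Genes that are active with brachyury in the early embryo were compared next. Of 24 such genes measured 11 had enough reads, and 5 rose and 2 fell by edgeR, or 45.5% and 18.2% against 16.1% and 16.1% of all genes. Their median log2 difference was 1.5, against 0.01 over all genes. This list, like the partner and target lists below, was chosen with earlier results of these data known. In such lists some genes had enough reads in every library of 1 group only. Here these were Wnt3, Sp5, Evx1 and Shh in the tumors and Nog in the colon tissues. The shares are therefore a description and not a test of the list. Sp5, a zinc finger factor that Wnt signaling switches on with brachyury, rose in every tumor, from 0.226 ± 0.0445 CPM in colon to 44.5 ± 14.7 CPM in tumor (SD, n = 3; log2 difference 7.57 ± 0.36 SE, edgeR adjusted p = 9.15e-05). Wnt3, the ligand needed to form the primitive streak, had 220 reads in tumor and 3 in colon, all in colon tissue 2, a ratio of 64.2 (95% counting interval, 21.7 to 313.8; edgeR adjusted p = 0.00244). Axin2, a feedback inhibitor of Wnt signaling, rose from 46.1 ± 20.6 to 401 ± 51.2 CPM (log2 difference 3.12 ± 0.35 SE, edgeR adjusted p = 0.00124). Evx1 and Sox9 also rose. Sox9 and Axin2 are made in adult colon crypts as well as in the embryo.

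The 2 early genes that fell were Cdx1 and Foxa2, both of which are made in gut epithelium too. Cdx1 fell from 294 ± 25.2 to 94.96 ± 15.5 CPM (log2 difference -1.63 ± 0.15 SE, edgeR adjusted p = 0.00056). The call of Foxa2 was lost in 9 of 16 other settings. The other 13 measured early genes had too few reads to test, among them Mixl1, Mesp1, Nodal, Fgf8 and Noto, which mark the primitive streak, nascent mesoderm and notochord beside brachyury. Mixl1 had 2, 10 and 4 reads in tumors 2, 4 and 20, and Sp8 had 10, 9 and 6. Both had none in colon, whereas Nodal had 3 reads in colon and none in tumor. Without the filter on low counts, 7 early genes were called higher and 1 lower. Colon tissue 2 stood apart in Evx1 and Cdx2, which were named after their values were seen, and not in every gene of this list. It had 9 reads of Evx1 against 120 and 134 in colon tissues 4 and 20, and 429 reads of Cdx2 against 3163 and 4065. Cdx2 also varied between tumors 2, 4 and 20, with 160, 1418 and 241 reads. Cdx2 did not pass (log2 difference -2.35, edgeR adjusted p = 0.114) but was called lower without colon replicate 2 (log2 difference -2.86), without tumor replicate 4 (log2 difference -3.79, edgeR adjusted p = 0.0277) and with the replicate block (log2 difference -2.37, edgeR adjusted p = 0.0348). The early genes called lower came to 3 without tumor replicate 4 and with the block, and to 2 without colon replicate 2.

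Factors and ligands that work with T-box factors in heart, limb and gut mesenchyme moved in both directions. Of 16 tested, 3 rose and 6 fell by edgeR, or 18.8% and 37.5% against 16.1% and 16.1% of all genes, and the median log2 difference was -0.50. Among these called genes, Gata5 and Sall4 had enough reads in every library of the tumors only, and Hand1 of the colon tissues only. Gata5, a partner of T-box factors in heart and gut, rose from 0.387 ± 0.225 to 30.5 ± 24.8 CPM (SD, n = 3; log2 difference 6.30 ± 1.0 SE, edgeR adjusted p = 0.00427), with tumors 2, 4 and 20 at 54.5, 4.95 and 32.1 CPM. Sall4, a partner of Tbx5 in limb and heart, and Smad5, a transducer of BMP signals and the gene with the highest level of this list (137 ± 15.7 against 97.9 ± 7.79 CPM, edgeR adjusted p = 0.0211), rose too. Hand2 fell from 25.1 ± 4.87 to 3.27 ± 1.75 CPM (log2 difference -2.93 ± 0.44 SE, edgeR adjusted p = 0.00342). Tcf21 (log2 difference -1.64 ± 0.26 SE, edgeR adjusted p = 0.00439), Mef2c (log2 difference -1.20 ± 0.20 SE, edgeR adjusted p = 0.00485), Hand1, Foxf1 and Fgf10 fell as well. These are genes of mesenchyme and muscle. Beside them, all 10 smooth muscle marker genes fell in the tumors, and their summed level was 572 to 1132 CPM against 9177 to 9607 CPM in colon. Its part in these values was not tested. Without colon replicate 4, 3 partner genes were lower, and without tumor replicate 4, 5 were higher. Of 16 other settings, 7 ended the call of Foxf1, the replicate block among them (edgeR adjusted p = 0.0872), 3 that of Smad5, 3 that of Fgf10, 1 that of Hand1 and 1, limma-voom, that of Gata5.

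Genes described as direct targets of T-box factors also moved in both directions. Of 16 tested, 4 rose and 3 fell by edgeR, or 25% and 18.8% against 16.1% and 16.1% of all genes. The median log2 difference was 0.15. Of the genes that rose, Cdkn2a, Foxc2 and Ripply1 had enough reads in every tumor but not in every colon tissue. Cdkn2a, the senescence gene that Tbx2 and Tbx3 repress in other cells, had 478, 142 and 598 reads in tumors 2, 4 and 20 and 1, 1 and 4 in colon tissues. Every tumor of Cdkn2a was above every colon tissue, and the ratio of summed reads was 177.8, with a 95% counting interval of 81.5 to 485.4 (edgeR adjusted p = 0.00124). Foxc2 rose from 0.629 ± 0.126 to 11.4 ± 2.59 CPM (log2 difference 4.18 ± 0.30 SE, edgeR adjusted p = 0.000292), and the gap junction gene Gja1, which T-box factors control in heart, rose by a log2 difference of 1.04 ± 0.26 (SE, edgeR adjusted p = 0.0226). Ripply1, which with its protein partners restrains Tbx6 in somites, rose as well. Fgfr3 fell from 80.8 ± 17.3 to 14.1 ± 1.47 CPM (log2 difference -2.52 ± 0.19 SE, edgeR adjusted p = 0.000315), and Dll1, a Notch ligand and Tbx6 target, and Hlx, a target of Tbx21, fell too. Cdh1, E-cadherin, which Tbx3 and brachyury repress in several cell types, had the highest level of this list, with 1199 ± 95.3 and 1081 ± 80.2 CPM (edgeR adjusted p = 0.342). The call of Gja1 depended on tumor replicates 2 and 20 and on colon replicates 4 and 20, and leaving out any 1 of these gave an edgeR adjusted p between 0.0595 and 0.0818. Of 16 other settings, 6 ended the call of Dll1, 5 that of Hlx and 4 that of Ripply1. The list had 2 to 6 genes higher and 1 to 2 lower over the leave-one-out fits, with 2 higher when tumor 2, colon tissue 4 or colon tissue 20 was left out and 1 lower without any 1 of the 3 tumors.

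**Figure D4:**
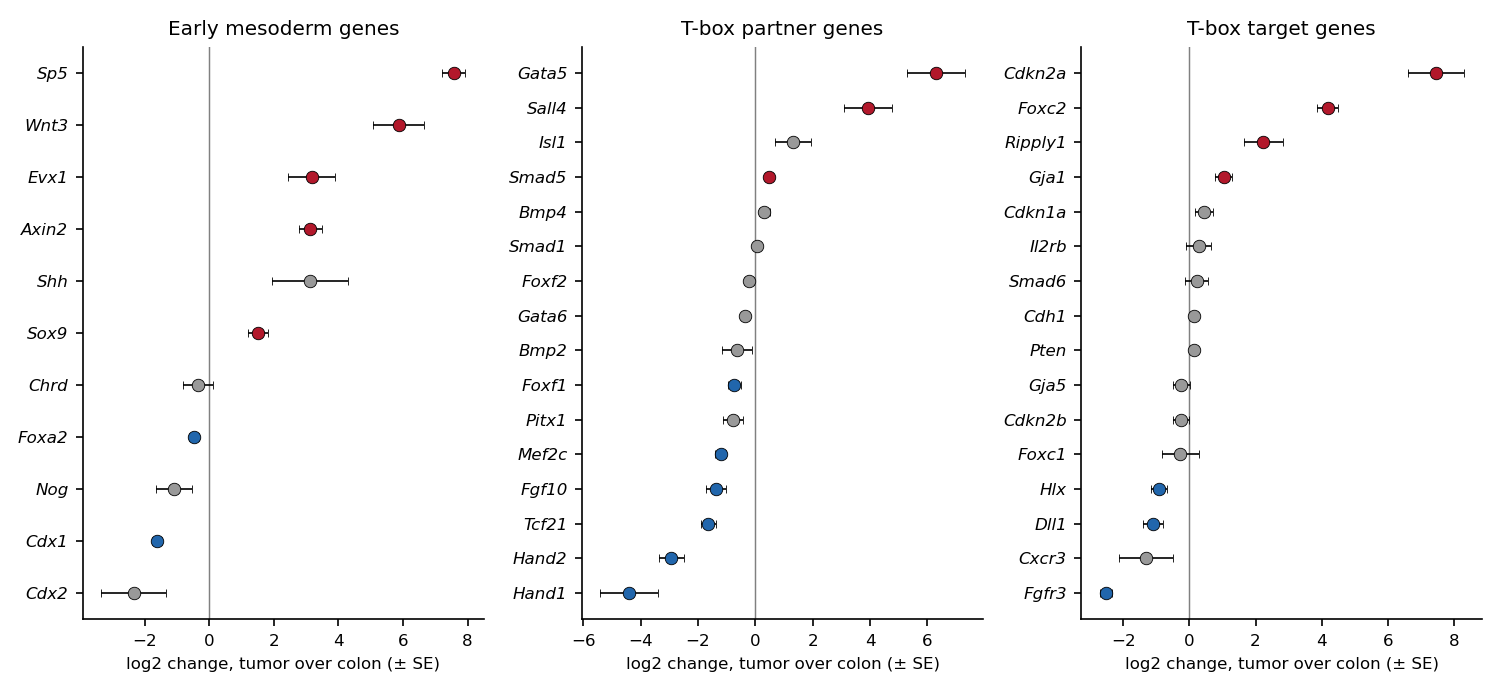
The log2 difference (tumor over colon, bar SE) of the tested genes of 3 lists, namely early mesoderm genes, partners of T-box factors and their targets. Red marks genes called higher by edgeR, blue genes called lower and gray genes not called. The counts called higher and lower are 5 and 2, 3 and 6, and 4 and 3.

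The genes most like each T-box gene were sought by the shape of the profile over the 6 libraries. For each, 17011 other genes had a mean of at least 1 CPM, and those of the 10 T-box genes among them were left out. The measure was the root mean square difference of log2(CPM + 0.5) profiles centered on their means, where smaller is more alike. Because every profile is dominated by tumor against colon, the lists name genes with a similar step between the tissues. For T these were Prox1 (0.24), Wnt10a (0.28) and Sp5 (0.28), and for Tbx3 they were Sox17 (0.19), Mab21l3 (0.19) and Arnt2 (0.22). Prox1 is a homeobox factor of lymphatic and enteroendocrine cells and Wnt10a a Wnt ligand, and Sox17 is a factor of endoderm and endothelium. For Tbx4 they were Clu (0.19), Sirpb1c (0.20) and Rdh10 (0.21), and for Tbx1 Nkpd1 (0.11), Ccr1 (0.17) and Cd300ld (0.19). Tbx2, with a nearly level profile, was closest to Gm26646 (0.04), Rap1gds1 (0.07) and Slc52a2 (0.07), and Tbx6 to Ildr2 (0.15), Gm11535 (0.23) and H4c14 (0.27). With a smaller pseudocount of 0.1, 10 of these 18 genes were named again, all 3 each for Tbx1, Tbx2 and Tbx6, 1 (Sox17) for Tbx3 and 0 for T and Tbx4. The names given for T and Tbx4, and most of those for Tbx3, thus depended on the pseudocount.

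Markers of the cell types in the tissue were summed beside these values. The summed level of epithelial markers overlapped between the groups, with 10122 to 11856 CPM in tumor and 10164 to 11405 CPM in colon, and so did the sums of fibroblasts (1767 to 2573 and 1573 to 2319), blood endothelium (138 to 248 and 167 to 205) and T and NK cells (8.16 to 22.7 and 10.4 to 20.4). Single markers moved within these sums. Of the 12 epithelial genes Cldn4 (588.7 CPM in tumor and 20.89 CPM in colon) and Krt18 rose and 0 fell by edgeR. Of the 10 fibroblast genes Col1a1 and Pdgfra rose while Dpt, Lum, Pi16, Mfap5 and Fbln1 fell by edgeR. Tek of blood endothelium fell, and Gzmb of T and NK cells rose. Beside smooth muscle, summed markers of interstitial cells of Cajal (296 to 421 and 728 to 1062), pericytes (186.5 to 246.8 and 359.4 to 448.5), enteric neurons (17.7 to 61.6 and 79.6 to 124.5), glia (184 to 226 and 280 to 460) and skeletal muscle (7.48 to 12.6 and 27.1 to 33.4) were lower in every tumor than in every colon tissue. The glial sum was mostly Erbb3 (202 CPM in tumor and 322 CPM in colon), and 5 of the 6 glial genes fell. Of the Cajal genes 4 fell, but Gja1 rose. Ret had a higher mean in tumor (29.7 and 11.6 CPM, not called), while 7 other neuron genes fell. Pdgfrb also had a higher mean in tumor (68.9 and 40.5 CPM, not called), while 3 other pericyte genes fell. The summed markers of squamous epithelium (103 to 145 and 5.60 to 19.7), lymphatic endothelium (478 to 629.5 and 139 to 191) and mesothelium (8.62 to 18.5 and 4.97 to 6.70) were higher, the last 2 through 1 gene each. The lymphatic sum was carried by Prox1, and 4 of its 6 genes fell. The mesothelial sum was carried by Msln, with 12.4 CPM in tumor and 0.874 CPM in colon, and the other 5 of its 6 genes had lower means in tumor, with Lrrn4 and Wt1 at 0. Also at 0 in tumor were the squamous genes Krt5 and Trp63, and Trp63 was at 0 in colon too. Which cells carried the T-box RNA was not tested.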

How the data were processed

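Total RNA of 3 colon tumors and 3 colon tissues was sequenced after a stranded mRNA library kit. Cutadapt, HISAT and GRCm39 are listed in the processing notes of the submitters. Their versions, and the program that counted reads and its handling of strand, were not given in the sources used here. For each library the authors deposited raw fragment counts per gene, and FPKM values, in which the authors divided counts by exon length and the library's total. The number of unused columns was 0.

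Groups follow the sample titles. The labels do not say that replicates came from separate animals, so the p-values reflect only how these samples spread, which may be technical. The quasi-likelihood test of edgeR 4.0.16 in R 4.3.3 was run on the counts of 18520 genes kept by filterByExpr after TMM scaling, with Benjamini-Hochberg adjustment and a threshold of 0.05. CPM values are TMM-scaled. Standard errors are the log2 difference divided by the root of F and are approximate. Genes with no reads in a group were set against 3 reads over the group. Counting intervals are exact 95% binomial intervals of summed reads and cover counting error only. Scripts were tested on simulated data.

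The study compared the tissues without a block, as done here. Its design text calls them paired and both tissues carry the numbers 2, 4 and 20, so the alternative fit with a block took libraries of the same number as pairs. Deviations of same-numbered libraries from their group means correlated at 0.19, 0.12 and 0.02, while tumor 4 correlated at 0.12 and tumor 20 at 0.02 with a colon library of another number.

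Alternatives were RLE, upper quartile and epithelial scaling (summed reads of 12 epithelial genes), no filter, 1 CPM in 3 libraries, the replicate block, DESeq2 1.42.0, limma-voom (limma 3.58.1), limma on log2(FPKM + 1) and log2(FPKM + 0.1), and leaving out each library. The T-box genes, the lists and the tests were chosen with earlier results of these data known. Named were every T-box gene, every called gene of the early mesoderm, partner, target and neighbor lists, with values for at most the 4 with the lowest p and the gene with the highest level, and the 3 most alike genes. Cdh1 and Gja1 of the target list are also in the epithelial and Cajal cell marker lists, and Wt1 of the partner list is in the mesothelial list. List genes without a row in the table, such as Wnt3a, were not analysed here. RefSeq promoters are of GRCm38.p6, an older build than the gene coordinates.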

Additional observations from a re-analysis of the deposited data

How the results depend on the processing

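Directions held in all 16 alternatives for T, Tbx1, Tbx2, Tbx3 and Tbx4, and no called result changed direction. Over the leave-one-out fits 3 to 4 of the T-box genes, which were chosen from this contrast, were called higher. All genes gave 2981 higher and 2987 lower calls, 2724 and 2833 with the replicate block, and 1905 to 2908 and 1904 to 2930 over the leave-one-out fits, lowest without colon replicate 4. With log2(FPKM + 1) in limma the split was 3860 and 2350, and with log2(FPKM + 0.1) it was 3911 and 2408, with a median log2 difference of 0.12. Early mesoderm genes had 1 lower gene with epithelial scaling, without the filter and in limma with log2(FPKM + 1) or log2(FPKM + 0.1), and 1 to 3 over the leave-one-out fits. Partner genes had 2 to 5 higher and 3 to 6 lower, and target genes 2 to 6 higher and 1 to 2 lower, over the leave-one-out fits. Neighbors had 5 higher in limma with log2(FPKM + 1) or log2(FPKM + 0.1). Neighbors had 2 lower with epithelial scaling, without the filter and with the replicate block, 1 lower in limma with log2(FPKM + 1) or log2(FPKM + 0.1), and 0 to 3 over the leave-one-out fits. The block ended the calls of Tbx1, Foxf1, Aldoa and Wars2 and added Cdx2 and Pitx1 (edgeR adjusted p = 0.0348 and 0.0424), both lower. Causes were not tested. Without colon replicate 20 the colon group had no read of Tbx3os2, and without colon replicate 2 none of Wnt3. The depth limits Tbx5, Tbx15, Tbx18 and Tbx20, which had at most 12 reads in any library.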
